A study of Mus musculus with 21 samples.

Results

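The data concern 32 genes of glycolysis, glucose transport and the hypoxia response in mouse brain microglia, the resident macrophages of the brain. They were chosen by gene symbol from knowledge of the pathway. No measured value entered the rule, but earlier results of these data were known when the genes were chosen. All 32 were among the 54532 gene symbols that each deposited table listed. The series asked how genetic deletion of Trem1, a receptor of myeloid cells that amplifies inflammatory signalling, changes microglial expression in aging and in 5XFAD mice. RNA was sequenced from 21 libraries of primary brain microglia, in 7 groups of 3, and deposited as 2 tables that were normalized separately. The aging table held young and aged libraries, each of wild type and of Trem1-/- genotype. The 5XFAD table held adult wild type, adult 5XFAD and adult 5XFAD libraries that also carry Trem1+/-. In 5XFAD mice, transgenes for familial Alzheimer's disease are driven by the neuronal Thy1 promoter, and amyloid plaques form.

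Ages were given only as young, aged and adult. The labels gave no way of isolating the cells, no strain or sex, and not which part of Trem1 was deleted. Nor did they state whether replicates were separate mice, so each p-value measures only the spread between these samples. On GRCm38 the genes the results turn on lie at chr6:122727809-122801640 (Slc2a3), chr13:6579768-6648777 (Pfkp), chrX:106187100-106203699 (Pgk1), chr9:59656368-59679375 (Pkm), chr7:34201330-34230336 (Gpi1), chr4:150236721-150248879 (Eno1), chr7:46841475-46855627 (Ldha), chr6:124810586-124814296 (Tpi1) and chr12:73901375-73947530 (Hif1a), by GENCODE M21. In bulk RNA, fewer cells of a type and less RNA per cell cannot be told apart.

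Glycolysis splits glucose into pyruvate in the cytosol. Glucose enters through facilitative transporters of the Slc2a family, is trapped by hexokinases, and pyruvate is either reduced to lactate and exported or oxidized in mitochondria, where pyruvate dehydrogenase kinases restrain its entry. The factor HIF-1, whose oxygen-sensitive subunit is encoded by Hif1a, induces many of these genes at low oxygen and after inflammatory stimulation of macrophages, and activated microglia are known for a shift towards glycolysis.

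Gene-assigned reads per library ranged from 8600878 to 19411434 (aging) and from 9264999 to 18698707 (5XFAD). Trem1 itself went against its label in the young groups. Its normalized counts, which are read counts divided by the library's size factor, were 25.2, 7.65 and 8.74 in young wild type and 89.4, 99.8 and 89.5 in the libraries labelled young Trem1-/-. They were 269, 188 and 237 in aged wild type and 124, 124 and 244 in those labelled aged Trem1-/-. In the 5XFAD table they were 62.7, 0 and 30.2 in adult wild type, 13.7, 32 and 36.8 in 5XFAD and 25.1, 18.1 and 38.3 in 5XFAD labelled Trem1+/-. Markers of other cells also moved between groups. Summed normalized counts of 13 neutrophil markers ranged from 16720 to 25097 in young wild type, 36075 to 70896 in the libraries labelled young Trem1-/-, 77298 to 136473 in aged wild type and 63644 to 147288 in those labelled aged Trem1-/-. The ranges for 8 monocyte markers were 1450 to 2658, 10702 to 20016, 10035 to 20660 and 11497 to 14041 in the same order, and for 10 microglial markers 410468 to 463412, 390758 to 403125, 310920 to 350465 and 294067 to 328532. In the 5XFAD table the microglial sums were 394663 to 442149 in adult wild type, 313198 to 356401 in 5XFAD and 373664 to 417813 in 5XFAD labelled Trem1+/-, and none of the 10 markers was at 0 throughout a group of either table. Sums of 5 choroid plexus markers ranged from 6067 to 14948 in young wild type, 2399 to 14845 in labelled young Trem1-/-, 27035 to 44780 in aged wild type and 30969 to 40831 in labelled aged Trem1-/- libraries. In the 5XFAD table they ranged from 2328 to 6604 in adult wild type, 14988 to 81736 in 5XFAD and 18295 to 103283 in 5XFAD labelled Trem1+/-, with replicate 1 the highest of each group. The part of these cells in the changes below was not tested.

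Levels were compared between genes per kilobase of merged exon. In young wild type the lactate dehydrogenase subunit Ldhb was the highest at 3173 ± 287 normalized counts per kilobase (SD, n = 3). Hexokinase 2 (Hk2) followed at 1261 ± 68.2, then the aldolase Aldoa at 1045 ± 88.8, pyruvate kinase Pkm at 781 ± 48.8 and enolase 1 (Eno1) at 570.2 ± 43.0. By merged exon length these 5 formed a descending order whose neighbours were separated by more than their SDs. The SDs do not cover the choice of length, on which the order rests. Merged exons and main transcript span 5379 and 2027 bases for Eno1, but 5969 and 5513 for Hk2. Near copies, described below, cover 76.8% of the transcript of Ldhb, 65.5% of Pkm and 85.6% of Eno1, which adds uncertainty to their levels. Below them the order was not resolved, since Hk3 at 477 ± 69.1, Pfkfb3 at 446 ± 57.9, Pgam1 at 402 ± 61.1, Hif1a at 385 ± 28.9 and Ldha at 329 ± 17.1 lay close together. The lowest were Eno2 at 2.98 ± 2.66, Egln3 at 13.6 ± 7.39 and Pfkfb2 at 16.8 ± 5.85. Adult wild type libraries, normalized separately, had the same 5 genes at the top in the same order, which was less well resolved. There Hk2 at 1151 ± 215 lay near Aldoa at 921 ± 102, and Eno1 at 424 ± 62.6 was not separated from Hk3 at 412 ± 48.6. Thus Hk2 was the main hexokinase message and Ldhb the main lactate dehydrogenase message in wild type libraries of both tables.

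In aged against young wild type, 13 of the 32 genes passed an adjusted p of 0.05, against 8.67% of the 16086 genes tested. Of these, 12 rose, where 6.43% of all genes did, and 1 fell, where 2.24% did. The median log2 change of the 32 genes was 0.43, beside -0.01 over all genes tested. All changes here are log2 differences with the standard error of the fit, and each group had n = 3. Groups without overlap are named only as a description, since a call on 3 against 3 libraries makes separation likely. The share of all genes without overlap was not counted. The glucose transporter Slc2a3, pyruvate kinase, phosphoglycerate kinase and the phosphofructokinase Pfkp were among those that rose, while Hif1a, Hk2 and Ldhb did not pass. In the same comparison 12 of 13 neutrophil markers, all 8 monocyte markers and 1 of 5 choroid plexus markers rose, and 8 of 10 microglial markers fell. At an unadjusted p under 0.05 all 5 choroid plexus markers were higher, with a median log2 change of 1.80.

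At the transport step 1 of 2 genes passed. Slc2a3, the high-affinity transporter also used by neurons and leukocytes, was at 214, 356 and 281 in young and 1282, 998 and 1679 in aged wild type libraries, with no overlap. Its log2 change was 2.21 ± 0.25 (adjusted p = 2.3e-05). Slc2a1, the widely expressed basal transporter, was at 623, 612 and 794 in young and 977, 754 and 972 in aged libraries, which overlapped. Its log2 change of 0.41 ± 0.16 did not pass (adjusted p = 0.12).

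Hexokinases phosphorylate glucose. Hk1 rose from 985, 924 and 1039.5 to 2051, 1434 and 1706, by 0.80 ± 0.14 (adjusted p = 0.00045), and the aged libraries all lay above the young ones. Hk3, the hexokinase of myeloid cells, rose from 2049.6, 1588 and 1634 to 2373, 2463 and 2634, by 0.51 ± 0.13 (adjusted p = 0.011), and Adpgk, the ADP-dependent glucokinase, from 809.8, 716 and 728 to 1400.0, 2053 and 3079, by 1.46 ± 0.38 (adjusted p = 0.048). The call of Hk3 was lost without aged replicate 3 or young replicate 2 or 3, and that of Adpgk without any 1 library but aged replicate 1. The aged library highest in Adpgk and in Slc2a3, replicate 3, also had the highest neutrophil marker sum of aged wild type, 136473, whose part was not tested. The sums of aged replicates 1 and 2 were 85845 and 77298, an order that Slc2a3 had and Adpgk did not. In young wild type the sums were 25097, 20425 and 16720, and replicate 1 was the lowest library in Slc2a3 but the highest in Adpgk. Over all alternatives the adjusted p of Hk3 and Adpgk reached 0.1 and 0.14. The most abundant hexokinase, Hk2, was at 7688, 7062 and 7826 in young and 9419.8, 7124 and 7943 in aged libraries. Its log2 change was 0.11 ± 0.10, with a 95% interval from -0.09 to 0.31.

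The middle steps of the upper pathway turn glucose 6-phosphate into triose phosphates, and 3 of the 7 genes for them rose in aged wild type. The isomerase Gpi1 went from 1495, 1309.8 and 1496 to 2846, 2267 and 2943 (log2 change 0.90 ± 0.13, adjusted p = 4.8e-05). Pfkp, the platelet-type phosphofructokinase, went from 207, 288 and 234 to 1100.0, 494 and 743 (log2 change 1.62 ± 0.24, adjusted p = 8.8e-05), with aged replicate 1 the highest. Its aged values had the order of the choroid plexus sums, 44780.3, 27035 and 43973. Its young values did not have the order of theirs, 6067, 9925 and 14948, and the part of the choroid plexus was not tested. Aldoa, which cleaves fructose 1,6-bisphosphate, went from 2837, 2954 and 3332 to 5539.9, 3860.1 and 5935 (log2 change 0.73 ± 0.14, adjusted p = 0.0013). Aged libraries lay above young ones for all 3. The liver-type phosphofructokinase Pfkl, at 1483, 947 and 1353 in young and 1527, 1282 and 1589 in aged libraries, overlapped and did not pass (0.24 ± 0.16), nor did Pfkm (0.38 ± 0.34), Aldoc (0.09 ± 0.41) or triose phosphate isomerase Tpi1 (0.38 ± 0.18).

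The lower pathway yields ATP and pyruvate. Pgk1, phosphoglycerate kinase, rose from 564, 380.5 and 600.1 to 1283, 977 and 1418 (log2 change 1.26 ± 0.19, adjusted p = 0.00015). Eno1, the enolase of most tissues, rose from 2838, 3062 and 3300.2 to 5585, 4662 and 6670.4 (log2 change 0.87 ± 0.14, adjusted p = 0.0003). Pkm, which makes pyruvate, rose from 3762, 3769 and 4189 to 9055, 6788 and 9273 (log2 change 1.09 ± 0.11, adjusted p = 1.1e-06), a fold of 2.12. The lowest aged library of each of these 3 genes exceeded the highest young one. Pgam1 (0.38 ± 0.16), Bpgm (0.14 ± 0.28) and the neuronal enolase Eno2 (2.20 ± 0.98), which had a mean of only 14.0 normalized counts in young wild type, did not pass.

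At the lactate step Ldha, the subunit that favours lactate formation, rose from 1026, 1133 and 1113 to 2381, 1594 and 2121 (log2 change 0.88 ± 0.15, adjusted p = 0.00039). Ldhb, the subunit that favours pyruvate formation, was at 5003, 4522 and 5421 in young and 5062, 4582 and 4360.4 in aged libraries, and its change was -0.09 ± 0.10 (adjusted p = 0.66). The lactate exporter Slc16a3 rose from 508, 507 and 537 to 830.0, 749.5 and 889.9 (log2 change 0.67 ± 0.18, adjusted p = 0.023). This call was lost without aged replicate 1 or 3 or young replicate 1 or 2, and the adjusted p reached 0.11 over all alternatives. Slc16a1, the related transporter, did not pass (0.24 ± 0.24).

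Around the core pathway, Pdk1, which phosphorylates and inhibits pyruvate dehydrogenase, fell from 1769.7, 1589.7 and 1603 to 1011, 1492 and 1221 (log2 change -0.43 ± 0.13, adjusted p = 0.046). This call was lost without any 1 library but aged replicate 2, and the adjusted p reached 0.25 over all alternatives. Its relative Pdk3 did not pass (0.61 ± 0.21, adjusted p = 0.076). Hif1a was at 2229.7, 2122 and 2456 in young and 2259, 2258 and 2783 in aged libraries, a log2 change of 0.10 ± 0.11 with a 95% interval from -0.14 to 0.33. Bnip3, a mitophagy receptor and a textbook target of HIF-1, was at 387, 385 and 317 and 274, 358 and 359 (-0.14 ± 0.21). Egln3, a hydroxylase that marks HIF subunits for degradation and is itself induced by hypoxia, was at 52.2, 14.2 and 41.9 and 82.2, 56.9 and 137, with a wide error (1.42 ± 0.85, adjusted p = 0.37). None of the 3 bisphosphate-regulating enzymes passed, with Pfkfb3 at 3873, 3070.1 and 3172 in young and 3237, 3714 and 3911 in aged libraries (0.11 ± 0.12).

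Of these 13 calls, 8 held under all 16 alternatives tried, those of Slc2a3, Hk1, Gpi1, Pfkp, Pgk1, Eno1, Pkm and Ldha. Aldoa lost its call only when limma was run without its trend and robust options. Of the genes without a call, Slc2a1 and Tpi1 passed without aged replicate 2 (adjusted p = 0.048 and 0.039), Pfkfb4 without young replicate 1 (adjusted p = 0.021) and Pdk3 with DESeq2 (adjusted p = 0.049).

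**Figure D1:**
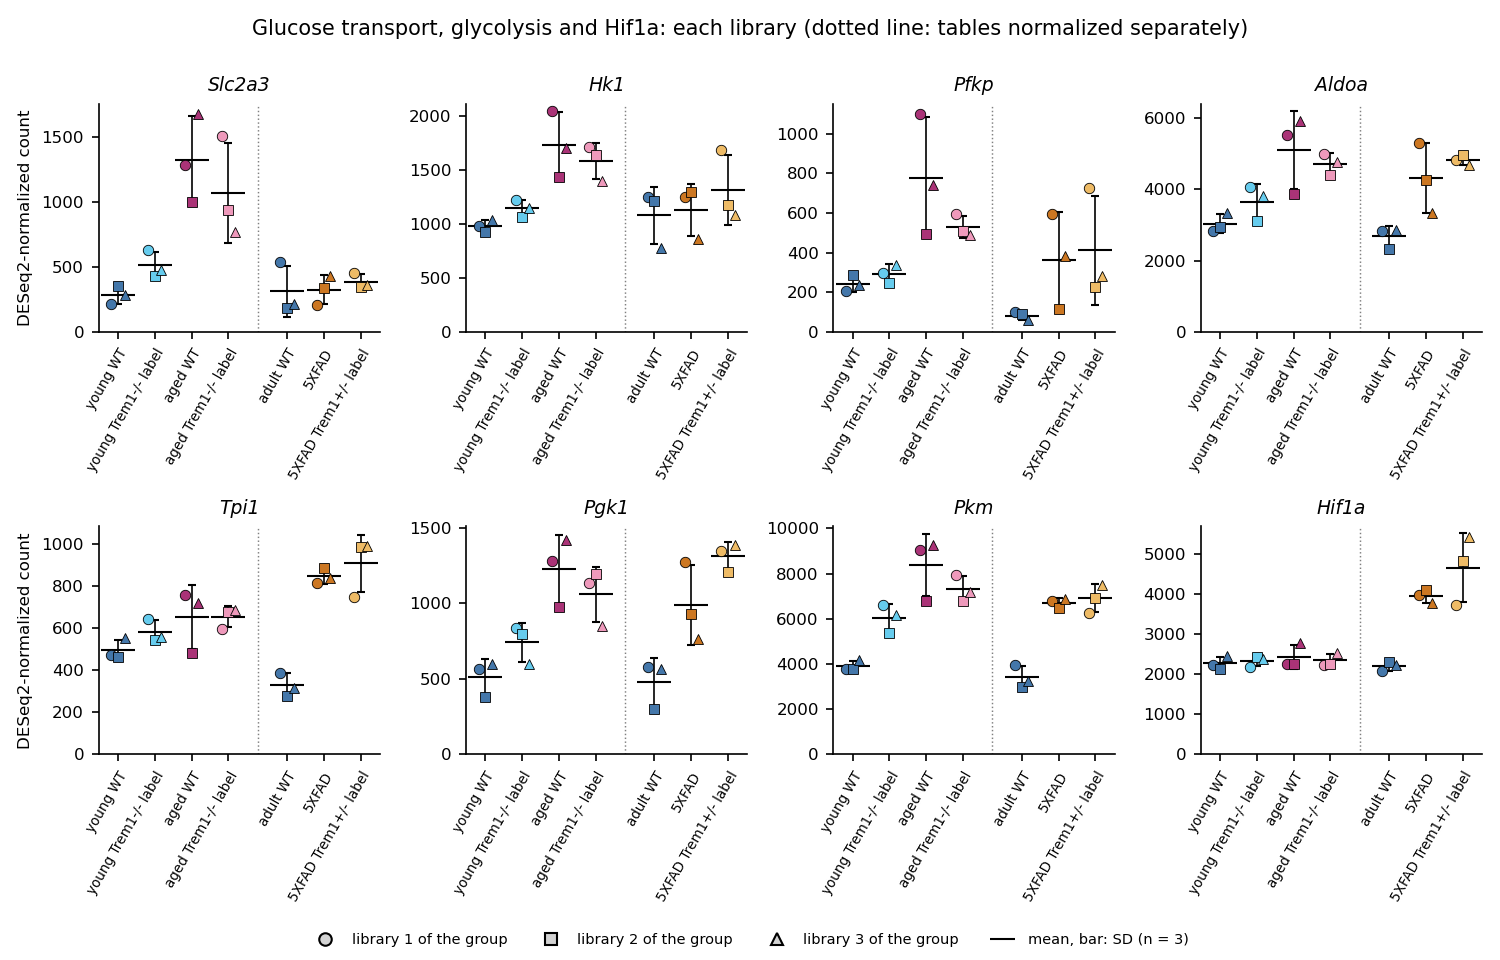
DESeq2-normalized counts (y axis, linear from 0) of 8 genes in each library of the 7 groups (x axis), with bars for mean ± SD. The aged wild type libraries lay above the young ones for Slc2a3, Hk1, Pfkp, Aldoa, Pgk1 and Pkm, whereas Hif1a stayed between 2122 and 2783 across the aging table and reached 3730 to 5422 in the 2 groups with 5XFAD.

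In the libraries labelled young Trem1-/-, 4 of the 32 genes rose against young wild type, where 2.58% of the 16086 genes tested passed in either direction and 2.36% were higher. All 4 were glycolytic enzymes, namely Gpi1, Eno1, Pkm and Ldha. Trem1 was higher in these libraries than in young wild type, against the label (2.85 ± 0.45, adjusted p = 0.00062), and 6 of 8 monocyte and 4 of 13 neutrophil markers were higher too.

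The libraries labelled young Trem1-/- held Pkm at 6596, 5366 and 6169, all above the young wild type values given earlier (log2 change 0.63 ± 0.11, adjusted p = 0.0021). Gpi1 was at 2408, 2094 and 2191 (0.64 ± 0.13, adjusted p = 0.0044). Eno1 was at 4750.5, 4290.4 and 4436 (0.55 ± 0.14, adjusted p = 0.032), and Ldha at 1842, 1459.5 and 1562 (0.57 ± 0.15, adjusted p = 0.04). For all 4 genes the groups did not overlap. Gpi1 and Pkm kept their calls with any 1 of the 6 libraries left out, but Eno1 and Ldha lost theirs each time, leaving 2 genes, with adjusted p of up to 0.29 and 0.28 over all alternatives. Without limma's trend and robust options 0 of the 32 passed.

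The other genes that had risen with age in wild type did not pass here. Slc2a3 was at 631, 432 and 475, above all young wild type libraries, with a change of 0.86 ± 0.25 (adjusted p = 0.092), and it passed with DESeq2, without the filter and with only the groups compared. Pgk1 was at 837, 799 and 596 (0.54 ± 0.19), Pfkp at 295, 244 and 339 (0.27 ± 0.24) and Hk1 at 1221, 1062 and 1148 (0.22 ± 0.14). Aldoa was at 4065, 3111 and 3803 (0.26 ± 0.14), Hk3 at 2006, 1735 and 1926 (0.11 ± 0.13), Adpgk at 1888, 1023 and 1053 (0.76 ± 0.38) and Slc16a3 at 610.2, 610.1 and 543 (0.18 ± 0.18). Pdk1 lay below every young wild type library at 1198, 1171 and 1245, a change of -0.46 ± 0.13 that missed the threshold (adjusted p = 0.075) and passed with DESeq2 and with only the groups compared. Hif1a was at 2191, 2437 and 2379, a change of 0.04 ± 0.11 with a 95% interval from -0.19 to 0.28. Both comparisons use the same young wild type libraries, so their values are only set side by side.

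Because Gpi1, Eno1, Pkm and Ldha were the genes called in this comparison, their promoters are shown, together with that of Bnip3, a HIF-1 target that passed in no comparison under any alternative. Each window covers 250 bases before and 50 bases from a RefSeq start site on, on GRCm38.p6, written 5′ to 3′ on the gene's strand. Capitals mark the core letters bound by HIF-1, ACGTG or GCGTG, or their reverse complements, including any within the E-box CACGTG, which holds ACGTG on both strands. The windows are chr7:34230287-34230586 on the minus strand for Gpi1, chr4:150236458-150236757 on the plus strand for Eno1, chr9:59656326-59656625 on the plus strand for Pkm, chr7:46846832-46847131 on the plus strand for Ldha and chr7:138909457-138909756 on the minus strand for Bnip3.
Gpi1: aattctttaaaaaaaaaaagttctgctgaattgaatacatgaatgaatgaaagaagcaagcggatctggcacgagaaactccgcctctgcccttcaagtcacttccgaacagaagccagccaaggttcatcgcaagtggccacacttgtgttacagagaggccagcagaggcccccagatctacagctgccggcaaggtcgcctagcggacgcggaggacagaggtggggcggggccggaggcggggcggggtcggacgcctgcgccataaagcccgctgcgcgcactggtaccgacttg
Eno1: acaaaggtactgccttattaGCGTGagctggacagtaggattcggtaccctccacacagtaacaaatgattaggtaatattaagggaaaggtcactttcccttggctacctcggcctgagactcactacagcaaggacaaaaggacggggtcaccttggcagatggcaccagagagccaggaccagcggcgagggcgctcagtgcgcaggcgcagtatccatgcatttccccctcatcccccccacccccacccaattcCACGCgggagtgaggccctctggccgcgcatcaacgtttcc
Pkm: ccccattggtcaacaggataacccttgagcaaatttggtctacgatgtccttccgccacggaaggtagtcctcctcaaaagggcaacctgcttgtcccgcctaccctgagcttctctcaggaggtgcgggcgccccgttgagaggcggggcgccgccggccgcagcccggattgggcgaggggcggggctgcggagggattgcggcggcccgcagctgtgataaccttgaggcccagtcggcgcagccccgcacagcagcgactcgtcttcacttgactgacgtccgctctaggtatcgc
Ldha: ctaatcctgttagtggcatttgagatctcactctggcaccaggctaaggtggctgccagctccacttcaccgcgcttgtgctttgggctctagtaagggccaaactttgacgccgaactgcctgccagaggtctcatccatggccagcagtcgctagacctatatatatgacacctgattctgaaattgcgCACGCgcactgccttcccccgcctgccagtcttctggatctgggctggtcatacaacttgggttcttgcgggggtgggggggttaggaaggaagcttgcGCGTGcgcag
Bnip3: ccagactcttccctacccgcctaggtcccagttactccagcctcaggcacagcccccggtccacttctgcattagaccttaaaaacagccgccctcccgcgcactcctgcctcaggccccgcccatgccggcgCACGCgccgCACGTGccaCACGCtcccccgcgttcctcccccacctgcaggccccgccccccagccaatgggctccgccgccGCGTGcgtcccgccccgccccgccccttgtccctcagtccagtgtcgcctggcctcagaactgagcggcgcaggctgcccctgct
Eno1 and Ldha had 2 matches each, Bnip3 had 5, and Gpi1 and Pkm had none in this window. The window shown is the one nearest to the start of the GENCODE transcript, and its start site lies 208 bases from that start for Pkm and 244 for Eno1. RefSeq gives Pkm 1 further window, 859 bases away, with 2 matches, Ldha 1 further, 1327 bases away, with 7, and Eno1 2 further with 2 each. Of the 31 genes with a window, 25 (80.6%) held at least 1 match, beside 43.8% of all 32851 windows and 59.1% of the 14408 windows of tested genes. At least 2 matches were found in 61.3% of the 31 windows, beside 20.6% and 31.5%. The 31 windows are 1 per gene, while the other sets count every RefSeq window of a gene, so the shares are not of like units. A match is only a description of the letters.

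**Figure D2:**
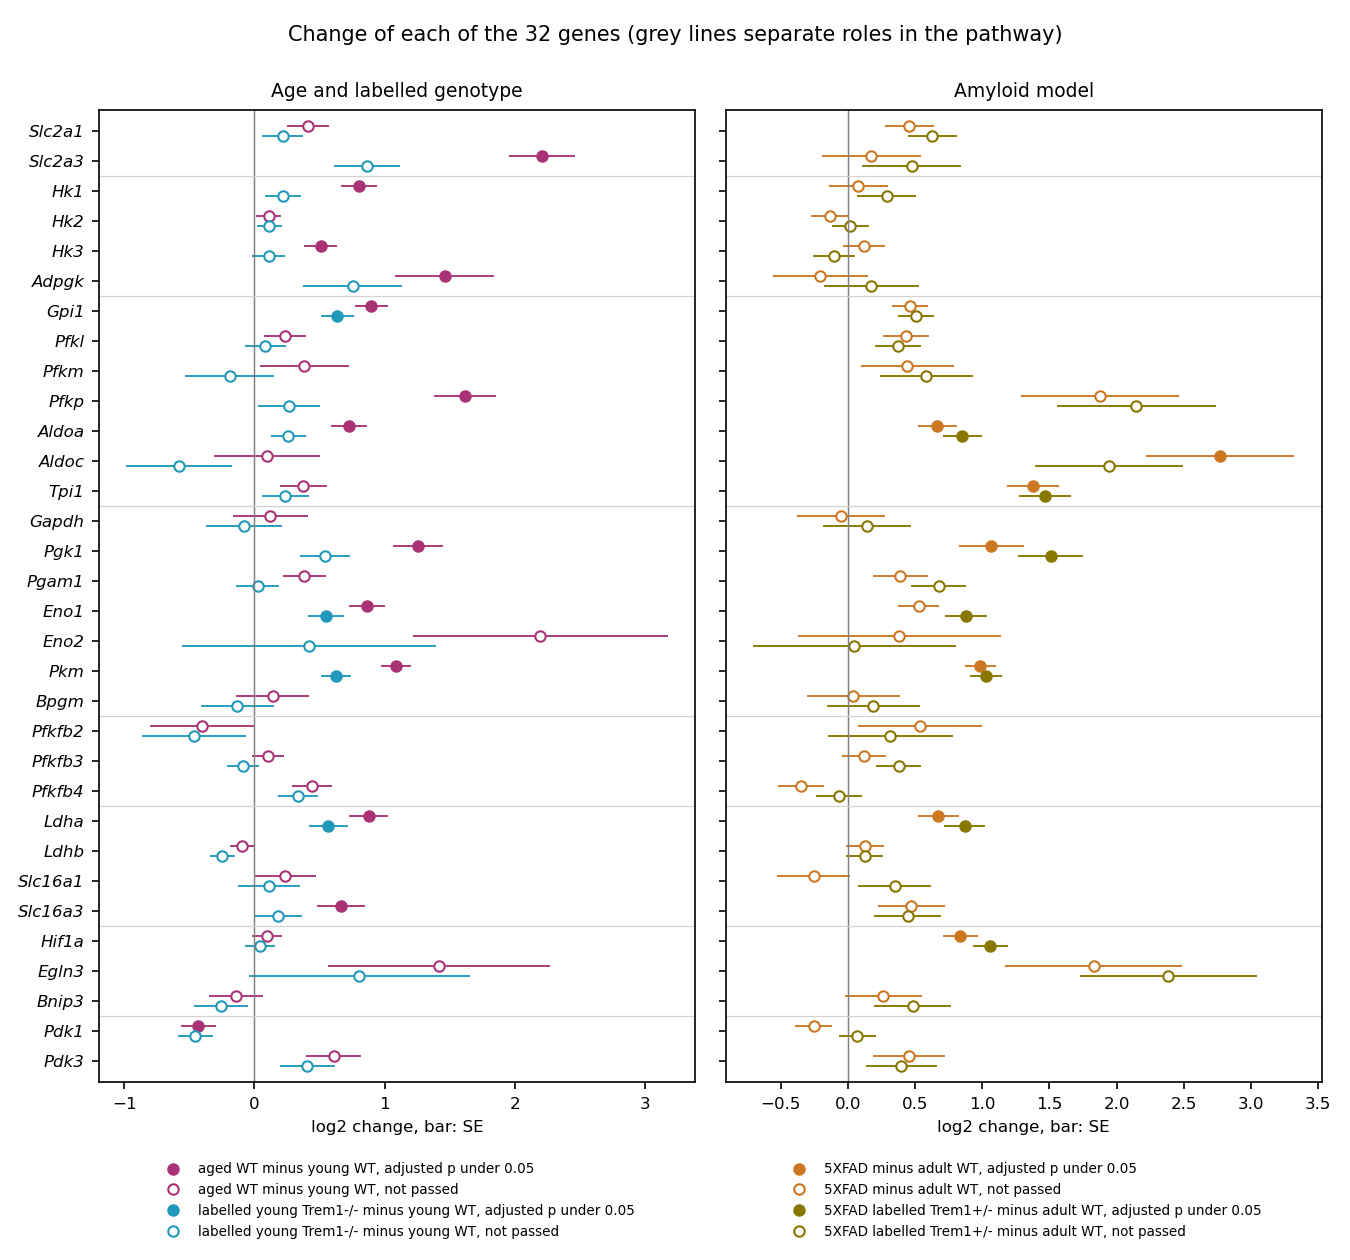
Log2 change (x axis, bars are SE) of each of the 32 genes (y axis, in pathway order) in 4 comparisons, filled where the adjusted p was under 0.05. The 2 comparisons of a panel share their wild type libraries. In the left panel 13 and 4 genes are filled, in the right panel 7 and 7, and Pkm and Ldha are filled in all 4.

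With age, the same 4 enzymes changed less in the libraries labelled Trem1-/- than in wild type. The age by genotype difference, which is the age change in the labelled Trem1-/- libraries minus that in wild type, passed for 4 of the 32 genes, where 2.54% of all genes tested passed and 2.14% were lower. It was -0.99 ± 0.19 for Eno1 (adjusted p = 0.0082), -0.81 ± 0.16 for Pkm (adjusted p = 0.007), -0.97 ± 0.21 for Ldha (adjusted p = 0.013) and -0.73 ± 0.18 for Gpi1 (adjusted p = 0.027). The test uses the young libraries of the previous comparison, so the 2 results are not independent. Over all 32 genes the median difference was -0.34, beside -0.02 over all genes tested.

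The libraries labelled aged Trem1-/- held Eno1 at 5277, 3557 and 3735 and Ldha at 1838, 1350.3 and 1396. Their age changes within the labelled genotype were -0.12 ± 0.14 and -0.09 ± 0.15, beside 0.87 ± 0.14 and 0.88 ± 0.15 in wild type. Pkm was at 7949.6, 6792 and 7202 and Gpi1 at 2894, 2223 and 2438, with age changes of 0.28 ± 0.11 and 0.17 ± 0.13, beside 1.09 ± 0.11 and 0.90 ± 0.13. Thus the labelled young libraries of these 4 genes already lay above young wild type, and the aged libraries of both labels overlapped. Eno1, Pkm and Ldha kept the call of the difference in every alternative but limma without trend and robust, under which 0 genes passed. Gpi1 lost it without young wild type replicate 2, aged wild type replicate 1 or 3, labelled young Trem1-/- replicate 1 or 3, or labelled aged Trem1-/- replicate 2 or 3, with an adjusted p of up to 0.2 over all alternatives. Slc2a3, at -1.19 ± 0.36 (adjusted p = 0.093), passed without aged wild type replicate 2 or labelled aged Trem1-/- replicate 1, and Pdk1, at 0.64 ± 0.19 (adjusted p = 0.074), without aged wild type replicate 2. Trem1 showed the same sign of difference (-3.40 ± 0.64, adjusted p = 0.0043), as did 5 of 8 monocyte markers and 2 of 13 neutrophil markers that passed.

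Between the aged groups, the libraries labelled Trem1-/- against wild type, 0 of the 32 genes and 0 of all 16086 tested passed in limma (0% of genes). At an unadjusted p under 0.05 there were 5 of the 32 and 1545 of all, and 0 of the 32 passed with DESeq2 or edgeR, which called 30 and 0 genes in all. The values with the smallest p among the 32 were those of Eno1 (-0.44 ± 0.14, adjusted p = 0.37) and Ldha (-0.41 ± 0.15, adjusted p = 0.41). Intervals were narrow for Hif1a, from -0.29 to 0.19, and for Pkm, from -0.42 to 0.05.

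Between the libraries labelled aged and young Trem1-/-, 1 of the 32 genes passed, where 1.71% of all genes did and 1.08% were higher. It was Slc2a3, which rose from 631, 432 and 475 to 1506, 935 and 766 (log2 change 1.02 ± 0.25, adjusted p = 0.04996). The call lay at the threshold and was lost under 9 of 16 alternatives, among them edgeR, and without labelled aged replicate 1 or 2 or labelled young replicate 2 or 3, with an adjusted p of up to 0.22. In this comparison 1 of 13 neutrophil and 1 of 5 choroid plexus markers rose and 2 of 10 microglial markers fell, and at an unadjusted p under 0.05 there were 8, 5 and 6. The neutrophil sums of the labelled aged libraries, 147288, 107295 and 63644, had the same order as their Slc2a3 values. Those of the labelled young libraries, 70896, 36508 and 36075, shared only the highest library with Slc2a3. The part of neutrophils in the rise was not tested. The libraries labelled aged Trem1-/- held Pfkp at 594, 507 and 489 (0.86 ± 0.24, adjusted p = 0.067), Hk1 at 1713, 1638 and 1396 (0.46 ± 0.14, adjusted p = 0.088) and Pgk1 at 1135, 1195 and 853 (0.51 ± 0.19). Aldoa was at 4994, 4404 and 4771, Hk3 at 2665, 2306 and 1992, Adpgk at 3367, 2638 and 1504, Slc16a3 at 786, 436 and 630.3 and Pdk1 at 1431, 1323 and 1421, none of which passed. Hif1a, at 2235, 2259 and 2539, stayed within its range in the other groups of the table.

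**Figure D3:**
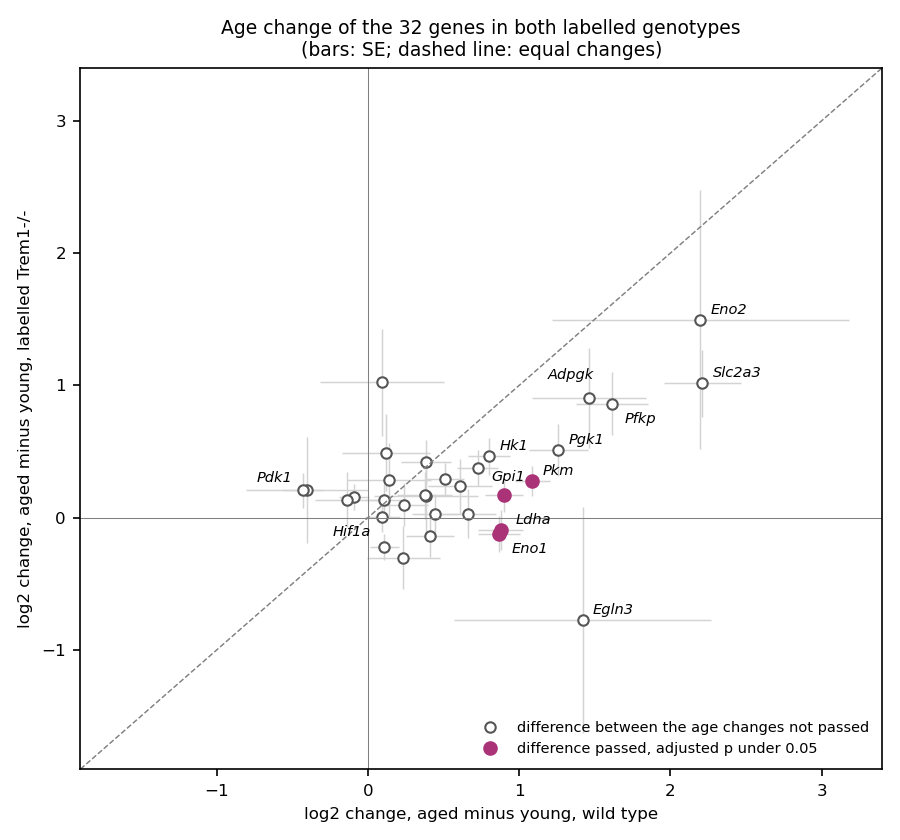
Log2 age change of the 32 genes in wild type (x axis) against that in the libraries labelled Trem1-/- (y axis), with bars for SE and a dashed line of equal change. The filled points Gpi1, Eno1, Pkm and Ldha, whose difference passed, lie below the line at 0.87 to 1.09 in wild type and -0.12 to 0.28 in the labelled Trem1-/- libraries.

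In 5XFAD against adult wild type, 7 of the 32 genes rose and none fell, where 1.98% of the 17025 genes tested passed and 1.62% were higher. They were the glycolytic enzymes Aldoa, Aldoc, Tpi1, Pgk1, Pkm and Ldha, and Hif1a. The median log2 change of the 32 genes was 0.44, beside 0.00 over all genes tested. Among markers, 1 of 6 for astrocytes rose, 1 of 10 for microglia rose and 2 fell, and none of 13 for neutrophils, 8 for monocytes and 5 for choroid plexus passed in limma. At an unadjusted p under 0.05 these last lists had 0, 0 and 4, beside 5 of 6 astrocyte markers (median log2 change 2.06) and 3 of 5 tested neuronal markers (median 2.07). The neuronal sums ranged from 127 to 198 in wild type and 317 to 729.7 in 5XFAD, and the part of these cells was not tested.

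Hif1a, which encodes the oxygen-regulated subunit of HIF-1, was at 2076, 2313 and 2234 in adult wild type and 3982, 4093 and 3765 in 5XFAD. The groups were far apart, with a log2 change of 0.84 ± 0.13 (adjusted p = 0.002). Egln3, induced by hypoxia, was at 70.4, 23.4 and 36.2 and 43.8, 228 and 283, so that 5XFAD replicate 1 fell within the wild type range, and the change of 1.83 ± 0.66 did not pass (adjusted p = 0.2). Without that library the change was 2.67 ± 0.53 and passed (adjusted p = 0.027), as it did with DESeq2, without the filter and without all replicate 1 libraries, with adjusted p over all alternatives from 0.0047 to 0.51. Bnip3, another induced gene, was at 423, 212 and 419.9 and 414, 523 and 301, which overlapped (0.26 ± 0.29, adjusted p = 0.72).

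In the upper pathway, Tpi1, which interconverts the triose phosphates, rose from 389.5, 279 and 318 to 816, 885 and 841 (log2 change 1.38 ± 0.19, adjusted p = 0.00069), a fold of 2.60. Aldoa rose from 2842, 2336 and 2863 to 5316, 4277 and 3347 (0.67 ± 0.14, adjusted p = 0.021). Aldoc, the aldolase abundant in astrocytes, rose from 17.6, 96.1 and 111 to 436, 474 and 309.7 (2.77 ± 0.55, adjusted p = 0.021). Summed counts of 6 astrocyte markers beside it ranged from 3113 to 3937 in adult wild type and 3836 to 5691 in 5XFAD, and their part in the rise of Aldoc was not tested. Pfkp had a log2 change of 1.88 ± 0.59 that did not pass (adjusted p = 0.16), with 99.0, 87.9 and 58.8 in wild type and 597, 113 and 384 in 5XFAD. Its highest 5XFAD library was replicate 1, which also had the highest choroid plexus sum. Its wild type values did not have the order of the wild type sums, 6604, 2328 and 4205. The part of the choroid plexus was not tested. Gpi1, at 1485, 1503 and 1305 and 1968, 1809 and 2140.1, did not overlap but did not pass (0.46 ± 0.14, adjusted p = 0.092), and Pfkl was at 1352, 1199.9 and 1344 and 1619, 2217 and 1491 (0.43 ± 0.17).

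In the lower pathway, Pkm rose from 3963, 2990.3 and 3264 to 6789.8, 6474 and 6862 (log2 change 0.99 ± 0.12, adjusted p = 0.00015). Pgk1 rose from 579.9, 299 and 563 to 1278, 928 and 762 (1.07 ± 0.24, adjusted p = 0.032). Ldha rose from 1065, 969 and 1214 to 1757, 1537 and 1888 (0.67 ± 0.16, adjusted p = 0.031), while Ldhb, at 4713, 4392 and 4719.8 and 6097, 5122 and 4076, overlapped (0.13 ± 0.14). In all 3 genes that rose, each 5XFAD library was above each wild type library. Eno1 was at 2224, 1980.3 and 2646 and 3961, 2476 and 3549.7 and did not pass (0.53 ± 0.16, adjusted p = 0.097).

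Among the genes of the set, none for glucose entry or trapping passed in 5XFAD. Slc2a12, a glucose transporter outside the set, did pass and is given below. Slc2a3 was at 539, 183 and 210.3 in wild type and 207, 336 and 431 in 5XFAD, a change of 0.18 ± 0.37 with a 95% interval from -0.61 to 0.96. Wild type replicate 1 was its highest library, and that library also had the highest neutrophil marker sum of the table, 54094. In 5XFAD the sums were 20885, 29653 and 27505, and Slc2a3 did not have their order. The part of neutrophils was not tested. Without wild type replicate 1 the change of Slc2a3 was 0.66 ± 0.33 (adjusted p = 0.39), and over all alternatives it ranged from -0.12 to 0.95 with no call. Slc2a1 was at 586, 642 and 794 and 891, 757 and 1149.7 (0.46 ± 0.18). Hk2 was at 5758, 8273 and 6587 and 5328, 7438 and 5995 (-0.13 ± 0.14), Hk1 at 1250.0, 1213 and 775 and 1247, 1292 and 856 (0.08 ± 0.22), Hk3 at 1645, 1314 and 1596 and 1565, 1873 and 1516 (0.12 ± 0.16) and Adpgk at 1259.8, 397 and 804 and 651, 512 and 789 (-0.20 ± 0.35). The remaining genes tracked in every library were also without a call, with Pfkfb3 at 2216, 3258 and 3544 and 2961, 3805 and 2914, Slc16a3 at 425, 376 and 559 and 595, 832 and 483 and Pdk1 at 1634, 2094 and 1965 and 1682, 1646 and 1429.

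Tpi1, Pkm and Hif1a kept their calls in every alternative but limma without trend and robust, under which 0 of the 32 passed. The count was 4 without 5XFAD replicate 1, where Egln3 passed, and 4 without adult wild type replicate 2. Pfkp and Eno1 passed without 5XFAD replicate 2 (adjusted p = 0.012 and 0.014). Aldoa and Pgk1 lost their calls without 5XFAD replicate 1 or 2 or wild type replicate 2, Aldoc without 5XFAD replicate 1 or 2, and Ldha without 5XFAD replicate 1 or 3 or wild type replicate 1 or 2. Over all alternatives the adjusted p reached 0.27 for Aldoa, 0.26 for Pgk1, 0.2 for Aldoc and 0.25 for Ldha.

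In 5XFAD labelled Trem1+/- against 5XFAD, 0 of the 32 genes and 0 of all 17025 passed in limma (0% of genes). At an unadjusted p under 0.05 there were 3 of the 32 and 883 of all, and DESeq2 and edgeR called 0 of the 32 and 16 and 0 genes in all. Hif1a was at 3729.8, 4815 and 5422 in 5XFAD labelled Trem1+/-, a change of 0.22 ± 0.13 with a 95% interval from -0.05 to 0.50. Pkm was at 6272, 6928 and 7511, a change of 0.04 ± 0.12 with an interval from -0.21 to 0.29, and Tpi1 at 749.7, 985 and 990.4, a change of 0.09 ± 0.19 with an interval from -0.32 to 0.49.

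Against adult wild type, 7 of the 32 genes rose in 5XFAD labelled Trem1+/-, where 2.78% of all genes passed, 2.04% higher and 0.74% lower. The wild type libraries are those of the previous comparison, so the values are set side by side. Hif1a changed by 1.06 ± 0.13 (adjusted p = 0.00018), Tpi1 by 1.46 ± 0.19 (adjusted p = 0.0003) and Pkm by 1.03 ± 0.12 (adjusted p = 8.7e-05). Pgk1 was at 1346, 1210.3 and 1388 and changed by 1.51 ± 0.24 (adjusted p = 0.0031). Eno1 was at 4324, 4254 and 3944 (0.88 ± 0.16, adjusted p = 0.0051), Aldoa at 4819, 4953 and 4676 (0.85 ± 0.14, adjusted p = 0.0034) and Ldha at 1612, 2117 and 2241 (0.87 ± 0.16, adjusted p = 0.005). In each of these 7 genes all libraries labelled Trem1+/- exceeded all wild type libraries, a description whose share over all genes was not counted. Aldoc, at 255, 165 and 269.9, did not pass here (1.94 ± 0.55, adjusted p = 0.082), nor did Egln3, at 112, 299 and 272 (2.38 ± 0.66, adjusted p = 0.069), Gpi1, at 2050.5, 1820.0 and 2235 (0.51 ± 0.14, adjusted p = 0.051), or Pfkp, at 728, 225 and 280.4 (2.15 ± 0.59, adjusted p = 0.083). All 7 calls were lost without limma's trend and robust options and in no other alternative. With DESeq2 12 of the 32 genes passed, beside 1061 of all genes, where limma called 473 in all. Egln3 passed without 5XFAD labelled Trem1+/- replicate 1 (2.83 ± 0.69, adjusted p = 0.042), and Aldoc without adult wild type replicate 3 (2.41 ± 0.56, adjusted p = 0.036). Gpi1 passed under 8 of 17 alternatives. Slc2a3 was at 453, 344 and 359, Slc2a1 at 1031, 1018 and 1052 and Hk2 at 6499.7, 6916 and 7244, none of which passed.

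Aging in wild type and 5XFAD, which share no library, are set side by side here, and the difference between them was not tested because the tables were normalized separately. Of 13 genes called with age and 7 called in 5XFAD, 4 were called in both, namely Aldoa, Pgk1, Pkm and Ldha. That is 30.8% of the first list and 57.1% of the second. Over all genes tested, 8.67% were called with age and 1.98% in 5XFAD. The overlap of those calls was not counted, so the shares above have no background to be judged by. Across the 32 genes the log2 changes had a Pearson correlation of 0.21, given as a description, since genes are not independent replicates. The value for Slc2a3 was 2.21 ± 0.25 with age and 0.18 ± 0.37 in 5XFAD, or 0.66 ± 0.33 without adult wild type replicate 1. For Hif1a it was 0.10 ± 0.11 with age and 0.84 ± 0.13 in 5XFAD, and for Tpi1 0.38 ± 0.18 and 1.38 ± 0.19.

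Ratios of normalized counts per kilobase within a library describe the balance between related genes. The Ldha to Ldhb ratio was 0.104 ± 0.0124 (SD, n = 3) in young and 0.206 ± 0.0360 in aged wild type, with no overlap, and 0.184 ± 0.0258 and 0.155 ± 0.0252 in the libraries labelled young and aged Trem1-/-. It was 0.111 ± 0.00939 in adult wild type and 0.166 ± 0.0464 in 5XFAD, so Ldhb remained the higher of the pair in every group. The Slc2a3 to Slc2a1 ratio was 0.206 ± 0.0653 in young and 0.704 ± 0.114 in aged wild type, against 0.237 ± 0.18 in adult wild type and 0.169 ± 0.0521 in 5XFAD. The ratio of Hk1 to Hk2 was 0.0914 ± 0.00165 in young and 0.148 ± 0.00614 in aged wild type. For Pdk1 to Pdk3 it was 1.78 ± 0.0788 in young wild type, 0.991 ± 0.203 in the libraries labelled young Trem1-/- and 0.878 ± 0.190 in aged wild type. These ratios were not tested.

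**Figure D4:**
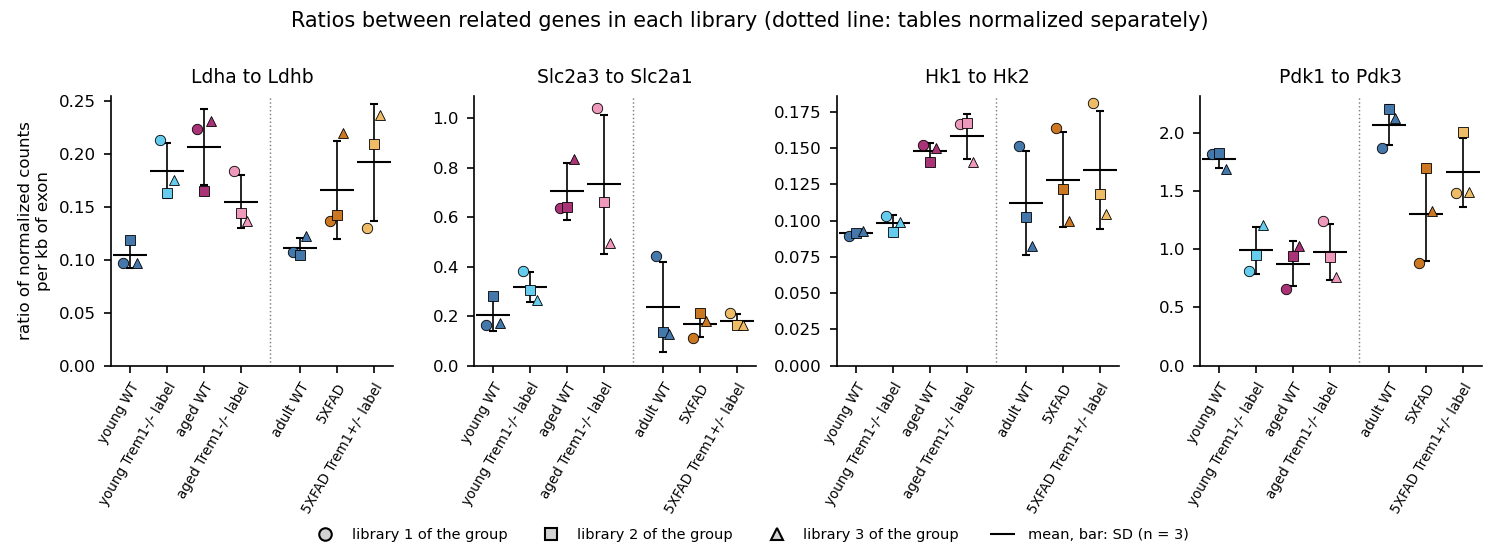
Ratios of normalized counts per kilobase of exon (y axis, linear from 0) between 4 pairs of related genes in each library of the 7 groups (x axis), with bars for mean ± SD. The Ldha to Ldhb ratio was 0.0973 to 0.119 in young and 0.165 to 0.231 in aged wild type.

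Gapdh, the glyceraldehyde phosphate dehydrogenase often used as a constant reference gene, was listed at low counts and passed in no comparison. It was at 216, 156 and 173 in young, 188, 146 and 180.1 in labelled young Trem1-/-, 249, 192 and 158 in aged and 221, 178 and 352 in labelled aged Trem1-/- libraries, and per kilobase it ranked 26 of 32 in young wild type. In the 5XFAD table it was at 237, 161 and 219, 168, 234 and 191 and 155, 229 and 316 in adult wild type, 5XFAD and 5XFAD labelled Trem1+/-. Its age change was 0.12 ± 0.29 and its 5XFAD change -0.05 ± 0.33. The GENCODE annotation holds 81 other genes, 76 of them pseudogenes, with stretches of at least 100 bases at 95% identity or more to its transcript, which cover 88.0% of it. Counts listed for those 81 genes summed to a mean of 823 in young wild type and 1327 in aged wild type, and to 927 in adult wild type and 1553 in 5XFAD, more than Gapdh itself in each. The processed pseudogene Gm2606, named after its values were seen, was at 503, 397 and 573 in young and 882, 688 and 953 in aged wild type, and rose by 0.78 ± 0.18 (adjusted p = 0.0084). How reads were divided between Gapdh and these copies is not given in the sources used here, so the level and change of Gapdh are uncertain.

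In all, 14 of the 32 have near copies, and for 8 these cover more than 50% of the transcript. The copies of Eno1 summed to 10.6% of its count in young and 10.1% in aged wild type, mostly from Eno1b, which rose from 269, 269 and 247 to 431, 382 and 653 (0.86 ± 0.21, adjusted p = 0.011), as Eno1 did. For Pkm and Ldha the copies summed to 1.21% and 0.0668% of the gene in young wild type. The 5 genes with near copies of Gpi1 summed to 1361 in young and 1469 in aged wild type, beside means of 1433 and 2685 for Gpi1 itself. Exons of Pfkp overlap those of its neighbour Pitrm1 over 5.58% of their length, and Pitrm1 did not pass with age (-0.05 ± 0.20). Exons of Pkm overlap those of Gm49759, not analysed here, over 15.3% of their length.

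**Figure D5:**
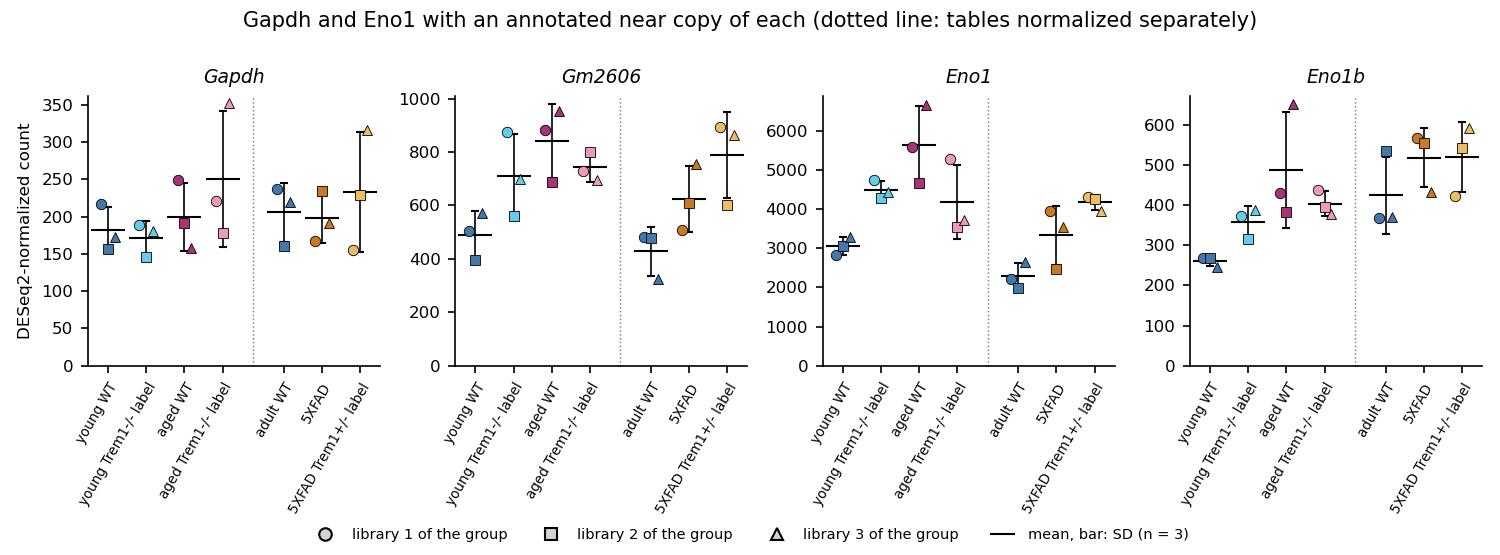
DESeq2-normalized counts (y axis, linear from 0) of Gapdh and Eno1 and of an annotated near copy of each, Gm2606 and Eno1b, in each library of the 7 groups (x axis), with bars for mean ± SD. Gm2606 lay between 397 and 573 in young and 688 and 953 in aged wild type, above Gapdh at 156 to 249 in the same groups.

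Of the 32 genes, 16 passed in none of the 8 comparisons. They were Slc2a1, Hk2, Pfkl, Pfkm, Gapdh, Pgam1, Eno2, Bpgm, Pfkfb2, Pfkfb3, Pfkfb4, Ldhb, Slc16a1, Egln3, Bnip3 and Pdk3. The most abundant lactate dehydrogenase and hexokinase genes and all 3 bisphosphate-regulating enzymes were thus among them. So were Egln3 and Bnip3 of the genes grouped here under hypoxia, which are not the only ones that HIF-1 can induce. Under at least 1 alternative, 5 of the 16 passed, namely Egln3, Pdk3, Pfkfb4, Pgam1 and Slc2a1. Hk2 stayed between 6835 and 9420 in the aging table and Ldhb between 4105 and 5421.

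Among 52 further genes of the pathway that are not in the set, 40 passed the filter for testing with age and 42 with 5XFAD. With age in wild type 5 of 40 rose (12.5%, beside 6.43% of all genes) and none fell. They were Ndrg1, a hypoxia-induced gene (2.49 ± 0.36), the carbonic anhydrase Car12 (2.36 ± 0.62), the lysosomal hexose transporter Slc2a6 (1.92 ± 0.34), Epas1, which encodes HIF-2 alpha (1.89 ± 0.37), and the angiogenic factor Vegfa (1.47 ± 0.40). The call of Car12 was lost under 7 of 16 alternatives, among them without aged replicate 1 or 3 or young replicate 1 or 2 (adjusted p up to 0.15), and that of Vegfa without aged replicate 1 or 3 or young replicate 1 (adjusted p up to 0.12). In young wild type Car12, at 56.9, 66.7 and 148, had the order of the choroid plexus sums, 6067, 9925 and 14948. In aged wild type it was at 433, 313 and 573 and did not have the order of the sums, 44780.3, 27035 and 43973. The part of the choroid plexus was not tested.

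In the libraries labelled young Trem1-/- 2 of 40 rose (5.00%, beside 2.36% of all genes), Ndrg1 (2.12 ± 0.36) and Slc2a6 (1.89 ± 0.34), both under all 16 alternatives. The age by genotype difference was lower for the same genes (-2.31 ± 0.51 and -2.31 ± 0.48), with the call of Ndrg1 lost without aged wild type replicate 3 or labelled young Trem1-/- replicate 2 or 3 (adjusted p up to 0.1). Between the libraries labelled aged and young Trem1-/- 1 of 40 rose, Epas1 (1.64 ± 0.37), a call lost without labelled aged replicate 1 or 2 or labelled young replicate 2 or 3 (adjusted p up to 0.18).

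In 5XFAD 3 of 42 rose (7.14%, beside 1.62% of all genes), namely Epas1 (2.32 ± 0.43), Slc2a12, a glucose transporter (1.82 ± 0.45), and Bsg, the chaperone of the lactate transporters (0.69 ± 0.14). In 5XFAD Epas1 was at 746, 336 and 258, Slc2a12 at 254, 158 and 166 and Bsg at 8932, 6246 and 7019. Each was highest in replicate 1, the library with the highest choroid plexus sum, 81736. The sums of replicates 2 and 3 were 14988 and 25407, an order that Slc2a12 and Bsg had and Epas1 did not. In adult wild type Epas1 was at 75.9, 104 and 64.1 and Slc2a12 at 52.8, 78.5 and 34.7. Both were highest in replicate 2, which had the lowest sum, 2328. Bsg, at 4476, 4045 and 5103, was lowest there. The part of the choroid plexus was not tested. Without all replicate 1 libraries, which leaves fewer libraries in every group, none of the 3 passed. The call of Slc2a12 was also lost without any 1 of the 6 libraries (adjusted p up to 0.22), that of Epas1 without 5XFAD replicate 1 or wild type replicate 1 or 3 (up to 0.18) and that of Bsg without 5XFAD replicate 1 or wild type replicate 2 (up to 0.26). The same 3 rose in 5XFAD labelled Trem1+/- (2.33 ± 0.43, 1.89 ± 0.45 and 0.82 ± 0.14), against the same wild type libraries, with the call of Slc2a12 lost without replicate 1 or 3 of either group. None passed between the aged groups or between the groups with 5XFAD.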

How the data were processed

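RNA sequencing libraries of primary mouse brain microglia were analysed, 12 of aging and 9 of 5XFAD, in separate tables and grouped by the labels. Reads were trimmed with fastp, aligned to GRCm38 with HISAT2 2.0.5, counted with featureCounts 1.5.0-p3 and normalized with DESeq2 1.20.0, per the submitters' processing notes; the roles are those the tools usually have. The annotation release, strandedness and treatment of multi-mapped reads are not given in the sources used here. The deposited values are normalized counts, a signal per gene that the authors obtained by dividing reads by size factors. The authors' deposited tables also hold log2 fold changes, a standard error and a Wald score, p-values and adjusted p-values for 1 contrast each. Those values were used only to check the direction of the contrast. By their signs it is young wild type minus labelled aged Trem1-/- in aging, which differ in age and label. For 5XFAD it is adult wild type minus 5XFAD.

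Whole reads were recovered from the steps of the low values, with at least 99.9956% of values within 0.05 of a whole read. No column of per-sample values was left unmapped (0 columns). A gene was tested where its mean normalized count was at least 10. Limma 3.58.1 (R 4.3.3) was fitted to log2(value + 1), with trend and robust options, over all groups of a table, and p-values were adjusted by Benjamini-Hochberg over all genes tested, with 0.05 as threshold; fold changes on this scale understate those of low genes. Alternatives were edgeR 4.0.16 and DESeq2 1.42.0 on the recovered reads, TMM scaling, pseudocounts of 0.5 and 5, no filter, only the groups compared, a replicate block and each library left out. The scripts were tested on simulated data. A count of 0 allows up to 3 reads, or 2.06 to 4.51 normalized counts (aging) and 2.26 to 4.36 (5XFAD), counting error only. Near copies were found with blastn 2.17.0 on GENCODE M21 transcripts (95% identity, 100 bases). RefSeq promoter windows matched 31 of the 32 genes.

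The members and lists were chosen with earlier results of these data known. Genes are given in every library where they passed in at least 1 comparison or stand for their step; of the 52 other pathway genes, up to 6 with the largest called change per comparison are named.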

Additional observations from a re-analysis of the deposited data

Results flagged for a closer look

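For 4 genes the age change differed between the libraries labelled Trem1-/- and wild type, tested as an age by genotype interaction in limma. The difference in log2 change was -0.73 for Gpi1, -0.99 for Eno1, -0.81 for Pkm and -0.97 for Ldha, each lower in the labelled Trem1-/- libraries. Trem1 went against its label in the young groups of this comparison, and monocyte and neutrophil marker sums moved with it. Their part in the difference was not tested.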

How the results depend on the processing

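Of 610 alternative fits of the 36 called changes among the 32 genes, 514 kept the call, 96 lost it and 0 reversed. Counts of the 32 genes passed changed by more than 1.5 times as follows, and the cause was not tested. Without limma's trend and robust options, 8 genes passed with age in wild type and 0 in every other comparison. With DESeq2, 3 passed between the libraries labelled aged and young Trem1-/-, beside 605 of all genes, where limma called 275 in all. DESeq2 gave 11 in 5XFAD against wild type, beside 778 of all genes, where limma called 337. In 5XFAD labelled Trem1+/- against wild type DESeq2 gave 12, beside 1061 of all genes, where limma called 473. Between the libraries labelled aged and young Trem1-/-, 0 passed with edgeR or TMM scaling, beside 206 and 277 of all genes. In the same comparison 0 passed with a pseudocount of 0.5 and 2 with only the groups compared. In 5XFAD labelled Trem1+/- against wild type, 12 passed with no filter and 12 with only the groups compared. Calls among all genes were not counted under alternatives other than DESeq2, edgeR and TMM scaling. Counts of the 32 genes under those other alternatives, with single libraries left out among them, therefore have no background to be judged by. With single libraries left out, counts ranged from 9 to 14 with age in wild type, 2 to 2 for the labelled young Trem1-/- libraries, 0 to 1 with age in labelled Trem1-/-, 3 to 6 for the age by genotype difference, 4 to 7 in 5XFAD and 7 to 8 in 5XFAD labelled Trem1+/-. Among same-numbered libraries 0 of 18 pairs correlated over 0.1 in the aging table (median 0.01), and 3 of 12 libraries correlated best with their own number. Of the 5XFAD libraries 1 of 9 pairs did (median 0.01, highest 0.20), yet 7 of 9 libraries correlated best with their own number, a hint from the data and not from the labels. The replicate block gave 0 genes with age in labelled Trem1-/- and 12 in 5XFAD labelled Trem1+/- against wild type; elsewhere it gave 12, 4, 0, 4, 9 and 0 in the order aged wild type, labelled young, labelled aged, age by genotype, 5XFAD and 5XFAD labelled Trem1+/- against 5XFAD. Without the replicate 1 libraries of all 3 groups, an alternative added after seeing the data, 5 passed in 5XFAD. Depth limits Eno2 and Egln3 most, which had the lowest counts.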
